A study of Mus musculus with 383 samples.

Results

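The genes described here had a probe set whose signal in a mouse, relative to other mice, was much the same in every region measured. Other probe sets of the same genes often did not share this, as given further on. A probe set is the group of short probes that an Affymetrix array joins into 1 value, and a gene can have several probe sets. Members were the probe sets with 1 gene symbol whose Pearson correlation across mice was at least 0.75 in each of the 6 pairs of 4 brain regions, on the deposited log2 values, leaving out a list of 18 genes and 4 families by name. This gave 118 probe sets of 109 genes, out of 34945 probe sets with 1 symbol (0.338%) and 18193 genes (0.599%). Before the named exceptions 142 probe sets passed, of which 24 were left out, and a further 51 past the threshold had no symbol or several.

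The animals were 117 male F2 mice of the cross C57BL/6J x 129S1/SvImJ, in which the grandparental alleles of both inbred strains segregate and each mouse carries its own mixture. Total RNA was read on 98 cortex, 108 thalamus, 83 hippocampus and 94 hypothalamus arrays, and 51 mice had arrays of all 4 regions. Every mouse, in all 4 groups, had been through behavioural tests from 7 weeks, implantation of electrodes for sleep recording at 10 weeks, 6 h of sleep deprivation and 1 h of restraint before tissue was taken at 16 weeks, between ZT6 and ZT7 (ZT0 is lights on). There was no untreated group, no parental strain and no female mouse, and genotypes were not used here. The regions were dissected pieces of tissue with many cell types, so that fewer cells of a type and less RNA per cell cannot be told apart.

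Variation of this kind is studied in F2 crosses because alleles near each other on a chromosome pass on together, so that transcripts under the control of linked alleles rise and fall in the same animals. A transcript set by an allele that acts on its own gene is often affected in many tissues at once, while one set by the state of the tissue follows the region, the cell types in it or the recent history of the animal. These statements are general background, and no allele was read in the data used here.

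Markers bore out the labels of cortex and thalamus, while the scale of the other 2 regions limits a check by level. Cortex exceeded thalamus by 5.18 on the log2 scale for Tbr1, a transcription factor of cortical neurons, and thalamus exceeded cortex for Shox2, with a cortex minus thalamus difference of -7.34. In hypothalamus the neuropeptide genes Hcrt and Pmch had means of 13.7 and 13.4, above their means in the other regions. Means in hippocampus and hypothalamus were not on the usual log2 scale: of 6 hippocampal markers 4 had a lower mean in hippocampus than in hypothalamus, namely Prox1 (2.03 and 10.2), C1ql2 (-2.60 and 9.29), Dsp (-1.61 and 7.46) and Neurod1 (6.14 and 7.61), and only Wfs1 (16.1 and 11.3) and Fibcd1 (10.2 and 9.79) a higher one. The cortex marker Tbr1 (13.7) and the thalamus marker Slc17a6 (22.7) had their highest means in hippocampus. Levels were therefore compared only between cortex and thalamus, and elsewhere mice were compared within a region.

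The sequences of 5 promoters are shown because these members moved together more closely than nearly all others, as described further on. E2f6, Mboat2 and Rec8 are the members that followed each other across 2 chromosomes, and Ergic3 and Rbm39 are the neighbouring pair with the closest positive relation. Each gene stands here for 1 probe set, and others of the gene can differ. The 11 others of Rbm39 correlated with its member at -0.824 to 0.903, and those of Ergic3 at 0.396 to 0.846. The other probe set of E2f6 and that of Mboat2 each lay at 0.610. Each runs 5′ to 3′ on the gene's strand from 250 bases before to 50 bases after the annotated start, from RefSeq on GRCm38.p6, a C57BL/6J reference that does not show the 129S1/SvImJ alleles. Capitals mark 2 short motifs searched on both strands, the CCAAT box (CCAAT) and the GC box (GGGCGG), while one more motif, the core of the E2F binding site (TTCCCGC), was also searched and would stand in capitals. Of the 109 member genes, 79 had a promoter in the RefSeq table, and where it held several starts the first listed was read.
E2f6, GRCm38.p6 chr12:16810715-16811014, plus strand: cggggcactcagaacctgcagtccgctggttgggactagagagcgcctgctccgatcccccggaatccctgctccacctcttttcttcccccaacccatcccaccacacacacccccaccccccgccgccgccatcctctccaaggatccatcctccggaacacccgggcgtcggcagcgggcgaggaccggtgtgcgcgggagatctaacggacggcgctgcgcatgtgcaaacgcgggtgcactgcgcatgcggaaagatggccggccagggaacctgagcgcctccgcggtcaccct
Mboat2, GRCm38.p6 chr12:24831349-24831648, plus strand: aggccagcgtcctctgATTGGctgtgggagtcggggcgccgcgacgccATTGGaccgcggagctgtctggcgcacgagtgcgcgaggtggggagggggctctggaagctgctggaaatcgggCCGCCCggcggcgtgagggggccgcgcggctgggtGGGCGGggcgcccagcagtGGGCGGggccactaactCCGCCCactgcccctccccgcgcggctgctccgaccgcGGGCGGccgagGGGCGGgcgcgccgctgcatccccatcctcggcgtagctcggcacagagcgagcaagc
Rec8, GRCm38.p6 chr14:55617916-55618215, plus strand: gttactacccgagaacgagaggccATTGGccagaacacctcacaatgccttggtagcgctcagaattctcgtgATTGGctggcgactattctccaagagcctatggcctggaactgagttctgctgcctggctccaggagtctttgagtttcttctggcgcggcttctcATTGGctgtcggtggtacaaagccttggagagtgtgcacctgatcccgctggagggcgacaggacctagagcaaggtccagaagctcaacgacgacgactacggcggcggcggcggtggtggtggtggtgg
Ergic3, GRCm38.p6 chr2:156007778-156008077, plus strand: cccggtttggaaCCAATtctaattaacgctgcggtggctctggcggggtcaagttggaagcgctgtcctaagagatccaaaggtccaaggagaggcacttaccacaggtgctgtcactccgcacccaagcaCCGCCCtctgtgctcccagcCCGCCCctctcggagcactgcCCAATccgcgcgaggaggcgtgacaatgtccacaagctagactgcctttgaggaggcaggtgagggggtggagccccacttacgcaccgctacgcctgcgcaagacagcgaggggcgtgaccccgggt
Rbm39, GRCm38.p6 chr2:156180189-156180488, minus strand: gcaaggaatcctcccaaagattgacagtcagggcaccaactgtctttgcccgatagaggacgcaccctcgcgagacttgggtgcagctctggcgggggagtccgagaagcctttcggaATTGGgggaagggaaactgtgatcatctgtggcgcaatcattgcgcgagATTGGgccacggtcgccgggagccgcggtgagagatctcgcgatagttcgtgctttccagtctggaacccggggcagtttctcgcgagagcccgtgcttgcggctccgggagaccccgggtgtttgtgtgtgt

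The Mboat2 promoter held 2 CCAAT boxes and 6 GC boxes, that of Rec8 held 3 CCAAT boxes, that of Ergic3 held 2 of each, and that of Rbm39 held 2 CCAAT boxes. That of E2f6 held none of the 3 motifs. Among the first promoters of all 27025 genes in the table, 37.9% held a CCAAT box, 35.9% a GC box and 4.66% the E2F core, against 41.8%, 57.0% and 1.27% of the 79 member promoters. The 27025 genes were not limited to those on the array or to bright ones, while members were brighter than most probe sets. The 2 sets of promoters are therefore not alike, and no share over measured genes was taken. A match here is a run of letters and not a shown binding site.

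The member probe set of Uri1, a partner of the prefoldin family of protein folding factors, had the highest lowest correlation of all members, 0.907 between cortex and hypothalamus. Next came Mapk8, the stress-activated kinase JNK1, at 0.894, Haus2, a subunit of the augmin complex of spindle microtubules, at 0.889, Hddc3, a phosphatase of the HD domain family, at 0.888, Pnma2, of the paraneoplastic Ma antigens, at 0.885, and Mir1931 at 0.882. The last is the name that the platform gives to a probe set of total RNA and says nothing about the mature microRNA. Lowest correlations of 0.874 were found for 2610507I01Rik and for Tmem87a, a membrane protein of the Golgi apparatus, 0.871 for Rassf2, of the Ras association family, and 0.869 for Atp2c1, the calcium and manganese pump of the Golgi, for Pigo, an enzyme of the GPI anchor, and for Cuedc1. The 20 genes with the highest values were completed by Cthrc1 (0.858), which encodes a secreted matrix protein, Ergic3 (0.858), which cycles between endoplasmic reticulum and Golgi, Serpina3n (0.856), a secreted protease inhibitor of reactive astrocytes, Cers5 (0.853), a ceramide synthase, Ppcdc (0.849), an enzyme of coenzyme A synthesis, E2f6 (0.847), a transcriptional repressor of the E2F family, Pisd-ps3 (0.846), a pseudogene, and Nrip2 (0.845), a nuclear receptor interacting protein. Members were chosen by these correlations, which are given as a description, without a test. The median of the lowest correlation was 0.805 over the 118 probe sets and -0.104 over all probe sets with 1 symbol.

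**Figure D1:**
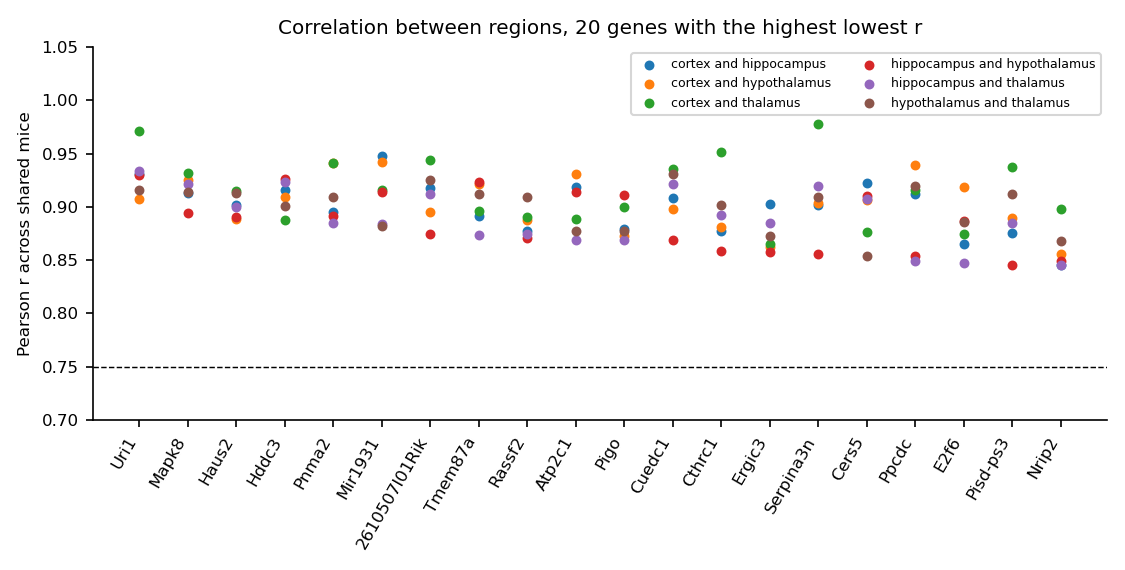
Pearson correlation across shared mice (vertical axis) in each of the 6 pairs of regions (colours) for the 20 genes with the highest lowest value (horizontal axis), with the threshold of 0.75 as a dashed line. The points of Uri1 run from 0.907 to 0.971 and those of Nrip2 from 0.845 to 0.898.

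Just inside the threshold lay 9630050P21Rik (0.751), the tyrosine kinase gene Src (0.751), Saraf (0.751), a regulator of calcium entry, Mboat2 (0.7503), a phospholipid acyltransferase, and Clasp2 (0.75003), which binds microtubule ends. Just outside lay a further probe set of Pisd-ps3 (0.7496), Atpsckmt (0.749), 4930480K23Rik (0.748), Paip1 (0.748) and Prxl2c (0.747). Cortex and thalamus, with 91 shared mice, were the pair with the highest correlation for 44 of the 118 probe sets and the pair with the lowest for 10. Hippocampus and hypothalamus, with 67 shared mice, were the lowest for 37 and the highest for 19.

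Values of single mice show what these correlations stand for. The Uri1 probe set ran from 6.29 to 9.38 in cortex (median 8.93), from 8.92 to 11.0 in hippocampus (median 10.3), from 9.51 to 11.5 in hypothalamus (median 10.9) and from 6.59 to 9.82 in thalamus (median 9.19). Its mice did not spread evenly over this range. In cortex 17 mice lay at or below 7.21 and 81 at or above 8.43, with none between, and in thalamus 17 lay at or below 7.34 and 87 at or above 8.46. The mice of this low cluster numbered 22 in all, and those with an array were also the low ones in hippocampus (17 mice at or below 9.75, 62 at or above 9.94) and in hypothalamus (17 at or below 10.3, 74 at or above 10.4).

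Mapk8 ran from 7.66 to 10.3 in cortex (median 9.12), from 1.89 to 4.82 in hippocampus (median 3.64), from 4.93 to 8.02 in hypothalamus (median 6.99) and from 7.49 to 9.99 in thalamus (median 9.06). Its SD over mice was 0.633 in cortex and 0.557 in thalamus. Hddc3 ran from 7.38 to 9.52 in cortex (median 8.68), from 9.02 to 11.3 in hippocampus (median 10.5), from 11.0 to 13.5 in hypothalamus (median 12.4) and from 7.85 to 10.5 in thalamus (median 9.18). Its SD was 0.512 in cortex and 0.546 in thalamus. Serpina3n ran from 6.15 to 10.2 in cortex (median 8.87), from 2.14 to 5.59 in hippocampus (median 4.38), from 11.5 to 13.5 in hypothalamus (median 12.8) and from 7.07 to 10.4 in thalamus (median 9.40). Its SD was 1.04 in cortex and 0.971 in thalamus.

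**Figure D2:**
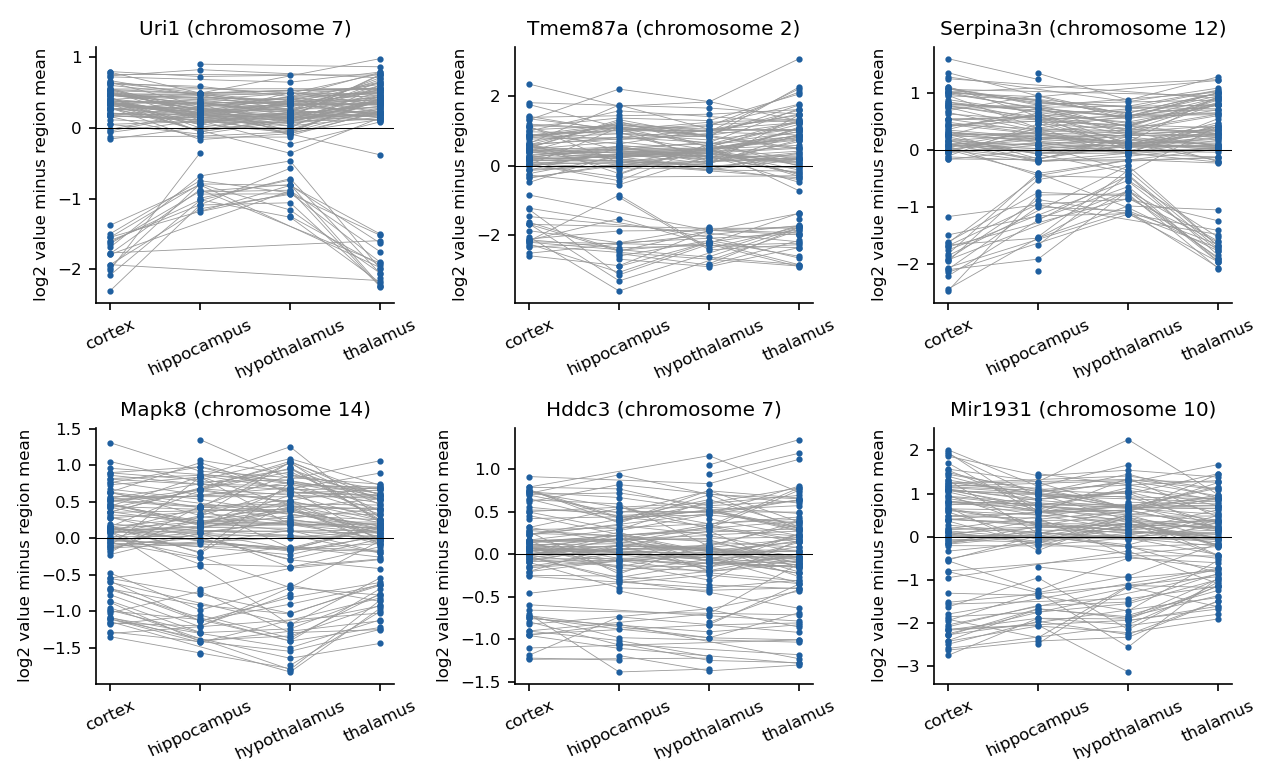
Deposited log2 value minus the mean of its region (vertical axis) in the 4 regions (horizontal axis) for 6 members, with 1 point for each array and a grey line joining the arrays of a mouse. For Uri1 the 17 low mice of cortex lie apart from the other 81, and lines of low mice stay low in the other regions.

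Members varied more between mice than other probe sets did. The median SD over mice was 0.562 in cortex, 0.576 in thalamus, 0.582 in hippocampus and 0.581 in hypothalamus, against 0.204, 0.193, 0.228 and 0.203 over all probe sets with 1 symbol, and 117, 114, 116 and 113 of the 118 exceeded the latter medians. A correlation as high as the rule asks for needs spread beyond the array noise, so the rule bears on this measure too. The largest mean SD over the regions belonged to Atp2c1 (1.61), Mtrex (1.52), an RNA helicase of the nuclear exosome, Minar2 (1.44), the kainate receptor subunit gene Grik1 (1.32) and the apolipoprotein gene Apod (1.30), the smallest to Saraf (0.194), Tmem59l (0.207), Glo1 (0.236), the glyoxalase that detoxifies methylglyoxal, Abhd14a (0.238) and 9630050P21Rik (0.238). The unusual scale of hippocampus and hypothalamus enters these means: Atp2c1 had an SD of 0.976 in cortex and 0.944 in thalamus, but 2.33 in hippocampus and 2.18 in hypothalamus. Ndn, the imprinted gene of necdin, had 0.454 in cortex and 0.166 in thalamus. Over members, the log2 of cortex and thalamus SDs correlated at r = 0.935, and that of hippocampus and hypothalamus SDs at 0.965. Between cortex and hippocampus the value was lower, at 0.702. These correlations are over probe sets that are not independent. The members were also brighter than most probe sets: their median level was 8.09 in cortex and 8.37 in thalamus, against 6.35 and 6.51 over all 45037 probe sets, and 94 and 95 of them lay above the median of all.

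For 29 of the 109 genes the mice fell into separate clusters, and other genes were not examined for them. A cluster was called where the largest gap between neighbouring mice, with at least 10% of mice on either side, was at least 0.45 SD of the standardised mean over regions, among mice with at least 2 regions. In each of these 29 genes the smaller cluster was the lower one, and it held between 14.2% and 36.8% of mice, with a median of 25.0%. The widest gaps were those of Uri1 (1.43 SD, 22 low mice of 113), Tmem87a (1.02 SD, 28 of 111), Minar2 (0.913 SD, 30 of 114), Serpina3n (0.805 SD, 24 of 114), the glycosyltransferase gene B3galt1 (0.788 SD, 23 of 114) and Haus2 (0.746 SD, 31 of 114). The low mice came from at least 8 of the 9 animal cohorts given in the labels, and from all 9 for 20 of the 29 genes. In 4 of the 29 genes the clusters did not overlap in any of the regions. Since the same values set the clusters, no test is given for them. Each gene was read by 1 probe set, and other probe sets of clustered genes were not compared with it. Their lowest correlations between regions were at most -0.0209 for Uri1, 0.140 for Minar2 and 0.168 for B3galt1. Those of Haus2 reached 0.734, and Tmem87a and Serpina3n had no other probe set.

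Splitting mice at a gap narrows the range on either side and so lowers the correlation by construction. Within the larger cluster the median of the 6 correlations between regions had a median of 0.604 over the 29 genes, from 0.442 in Smco3 to 0.794 in Serpina3n. Within the smaller cluster it had a median of 0.206, from -0.297 in Epb41l1 to 0.567 in Ppcdc. For Uri1 the 2 values were 0.565 and 0.206, and for Tmem87a 0.668 and 0.0406. Of the 3 X-linked members, which male mice carry in 1 copy, Cd99l2 came nearest to a cluster: its largest gap was 0.442 SD, with 59 mice below it and 55 above.

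Which mice were low was related between genes of the same chromosome in either direction: some pairs shared most of their low mice and others none. Bloc1s6, a subunit of the BLOC-1 complex of lysosome-related organelles, and Tmem87a lie on chromosome 2, 81 genes apart. Of 28 mice low for Bloc1s6 and 27 low for Tmem87a, 27 were low for both, which is 96.4% of the first list and 100% of the second. Haus2 lies 7 genes from Tmem87a, yet of 31 and 28 low mice 0 were low for both, and Haus2 shared 17 of its 31 low mice with B3galt1 (73.9% of the 23 mice low for B3galt1). On chromosome 6 Nrip2 and Smco3 shared 25 mice (92.6% of the mice low for Nrip2 and 86.2% of those low for Smco3), and on chromosome 9 Ppcdc and Tmem25 shared 32 (91.4% and 88.9%). Over 24 pairs on 1 chromosome the mice low for both made up a median of 43.0% of those low for either, from 0% to 96.4%, and 6 pairs shared none. Over 382 pairs on different chromosomes the median was 14%, from 2.27% to 29.5%.

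The remaining 80 genes, without clusters, gave 3160 pairs, each tested across the 117 mice on the mean over regions of the value minus the region mean. Each gene was read by 1 probe set, the member with the highest lowest correlation. With 100000 permutations and Benjamini-Hochberg adjustment over the pairs, 171 were called at an adjusted p under 0.05, which is 5.41% of these pairs. Pairs of other probe sets were not tested. On 1 chromosome 158 of 222 pairs were called (71.2%), 94 positive and 64 negative, and their median absolute correlation was 0.519. On different chromosomes 9 of 2781 were called (0.324%) and the median was 0.0630. All 171 called pairs had the same sign in each of the 4 regions, which the rule largely fixes, since each member ranks the same mice alike in every region.

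**Figure D3:**
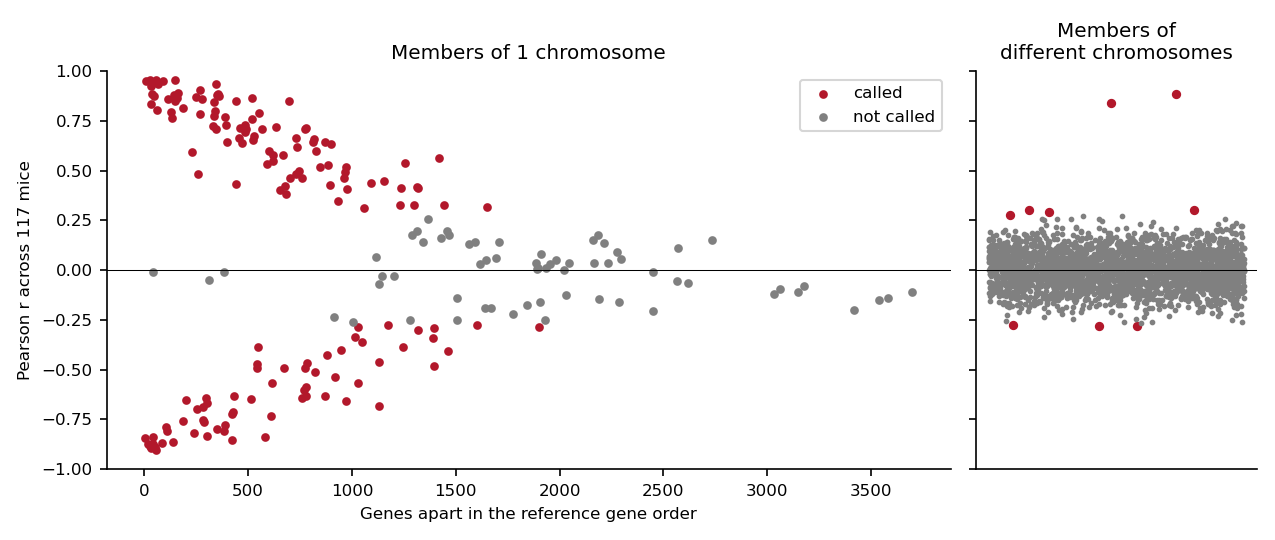
Pearson correlation across mice (vertical axis) of pairs of members on 1 chromosome against the number of genes between them (left) and of pairs on different chromosomes, spread sideways at random (right), with called pairs in red. Correlations of both signs shrink with distance, and 2 points on the right stand apart at 0.842 and 0.886.

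The relation faded with distance along the chromosome. Of 13 pairs at most 50 genes apart 12 were called, with a median absolute correlation of 0.876. Of 21 pairs more than 50 and up to 200 genes apart 21 were called (median 0.862), of 31 up to 400 genes apart 29 (median 0.773), of 50 up to 800 genes apart 50 (median 0.637), and of 107 pairs farther apart 46 (median 0.207). Both signs occurred at every distance, with 6 positive and 7 negative pairs within 50 genes. On chromosome 2 all 36 pairs were called, and on chromosome 8 all 10. Positions come from the reference gene order, since the array table names no genome build, and 107 of the 109 genes had one.

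The closest positive pairs were Frrs1l, needed for assembly of AMPA receptors, with Rad23b, of DNA repair and ubiquitin transport, on chromosome 4 (r = 0.957, rho = 0.921), E2f6 with Mboat2 on chromosome 12 (r = 0.957, rho = 0.936), the cohesin acetyltransferase gene Esco1 with the kinesin gene Kif5b on chromosome 18 (r = 0.954, rho = 0.936), Ivd, of leucine breakdown, with Ppip5k1, an inositol pyrophosphate kinase, on chromosome 2 (r = 0.953, rho = 0.948), and Ergic3 with the splicing factor gene Rbm39 (r = 0.950, rho = 0.916). Each of these had a permutation p of 1e-05, the smallest that 100000 permutations can give, and an adjusted p of 0.000224. Without the 2 mice farthest from the median of the first gene the 5 values lay between 0.946 and 0.959. The closest negative pairs were Ivd with the phospholipase gene Pla2g4e (r = -0.904, rho = -0.943), Pla2g4e with Ppip5k1 (r = -0.896, rho = -0.930) and Ergic3 with Src (r = -0.888, rho = -0.929), all on chromosome 2, with the same permutation p of 1e-05.

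Some of these genes came near to a cluster, and the mice of Ergic3 and Rbm39 lie in 2 clouds in the plot of pairs, with largest gaps of 0.352 and 0.347 SD. Among the 75 mice on the larger side of both gaps their r was 0.792. For E2f6 and Mboat2 it was 0.877 among 78 mice and for Frrs1l and Rad23b 0.836 among 84 mice. With only genes whose largest gap was under 0.35 SD, a setting added after the data were seen, 67 genes remained and 126 pairs were called, of which 115 of 153 lay on 1 chromosome and 7 of 1927 on different chromosomes.

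Rec8, which encodes a cohesin subunit of meiosis, stood out from this pattern. It lies on chromosome 14, and the Ppp1r3e gene, of glycogen metabolism, lies 40 genes away, yet their correlation was -0.00940 (rho = -0.0140, permutation p = 0.919, adjusted p = 0.997). Only 3 of the 65 pairs at most 400 genes apart were not called, and all 3 were pairs of Rec8, with Ppp1r3e, Pnma2 and Gm26782. Rec8 instead followed 2 members of chromosome 12, Mboat2 at r = 0.886 (rho = 0.890) and E2f6 at r = 0.842 (rho = 0.874), each with a permutation p of 1e-05 and an adjusted p of 0.000224. By region, where the rule again leaves little room to differ, the correlation of Mboat2 with Rec8 was 0.787 in cortex, 0.752 in thalamus, 0.823 in hippocampus and 0.896 in hypothalamus, and that of E2f6 with Rec8 was 0.755, 0.668, 0.783 and 0.899. Among mice on the larger side of the largest gap of both genes the 2 values were 0.619 and 0.573.

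The Rec8 probe set ran from 4.49 to 7.21 in cortex (median 5.65), from 3.20 to 7.27 in hippocampus (median 5.00), from 4.28 to 9.17 in hypothalamus (median 6.70) and from 4.92 to 8.80 in thalamus (median 6.14). It was the only probe set of its gene. E2f6 ran from 4.78 to 7.52 in cortex (median 6.68), from 8.27 to 11.2 in hippocampus (median 9.98), from 5.76 to 8.34 in hypothalamus (median 7.38) and from 5.39 to 8.04 in thalamus (median 7.01). Mboat2 ran from 8.26 to 9.94 in cortex (median 9.35) and from 8.31 to 10.2 in thalamus (median 9.47). Another member, 9630050P21Rik, for which the reference table gave no position, correlated with Rec8 at 0.527, with Mboat2 at 0.497 and with E2f6 at 0.447, each with an adjusted permutation p of 0.000224. The other 7 called pairs on different chromosomes had absolute correlations between 0.276 and 0.304.

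**Figure D4:**
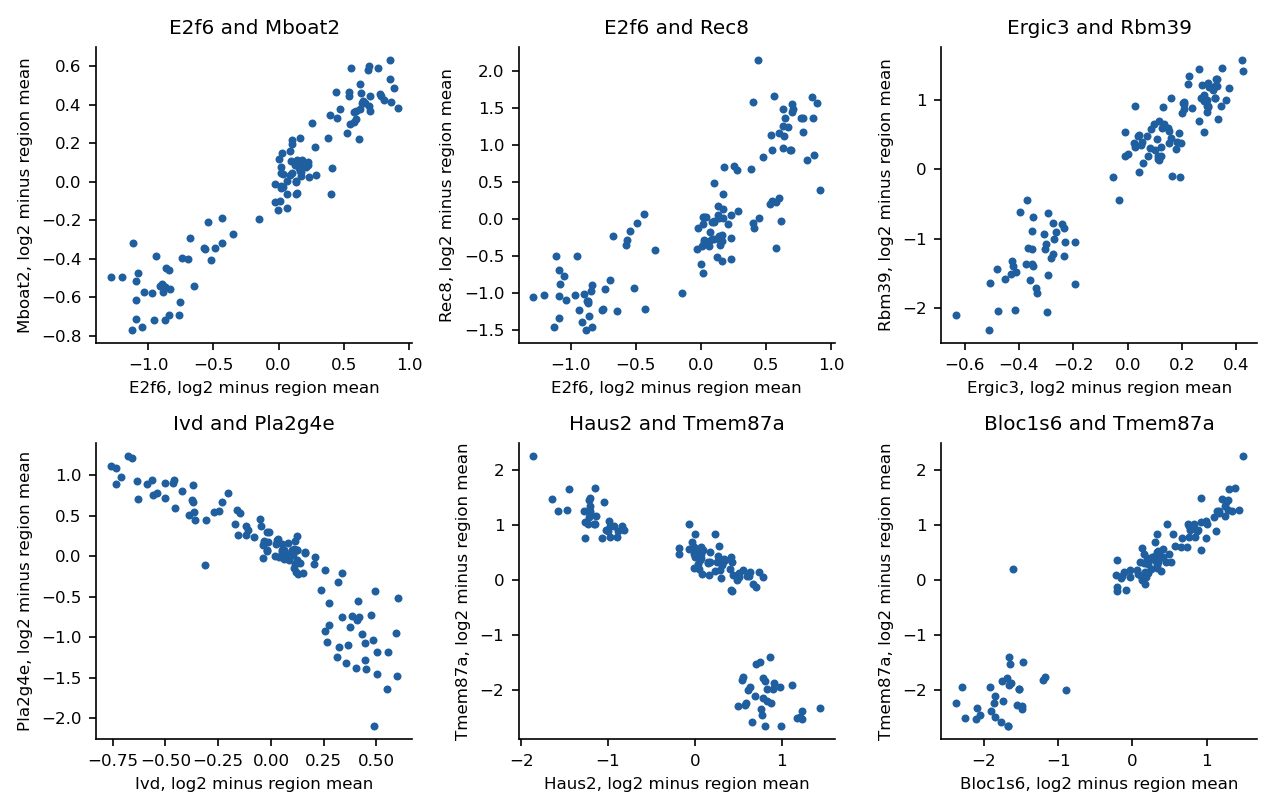
Mean over regions of the log2 value minus the region mean, 1 point for each mouse, for 6 pairs of members named above each panel. Rec8 rises with E2f6 (r = 0.842) although they lie on different chromosomes, and the mice low for Tmem87a are low for Bloc1s6 but not for Haus2.

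Members next to each other, at most 10 genes apart, made up 7 pairs. They were Cfap54 and Mir1931 on chromosome 10, Cuedc1 and the RNA-binding protein gene Msi2 on chromosome 11, Pla2g4e and Tmem87a, Tmem87a and Haus2, Ergic3 and Rbm39, and Rbm39 and Epb41l1 on chromosome 2, and Uri1 and Pop4 on chromosome 7. For the 2 pairs without clustered genes the correlation was 0.950 for Ergic3 and Rbm39, 9 genes apart, and -0.846 for Cfap54 and Mir1931, 6 genes apart (both permutation p = 1e-05). By chromosome, members were most numerous on chromosomes 2 (14 genes of 1399 named, 1.00%), 4 (12 of 1087, 1.10%) and 7 (12 of 1413, 0.849%), took the largest share on chromosome 18 (8 of 458, 1.75%), and numbered 1 of 1121 on chromosome 5 and 0 of 609 on chromosome 19. Genes that the rule left out by name still count in these totals but could not be members, so the shares depend in part on that list.

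Of the 109 genes 84 had further probe sets that were not members, 214 in all, and their lowest correlation between regions had a median of -0.0225; 27 reached 0.5, and for 65 of the 84 genes none did. Only 6 genes had more than 1 member probe set, among them Glo1 with 3 and Pisd-ps3 with 4. Other probe sets were compared with the member across the 117 mice for the genes without clusters, 152 comparisons in 63 genes, and 117 were called by permutation with Benjamini-Hochberg adjustment (77% of these comparisons), 90 positive and 27 negative. Probe sets of genes without a member were not compared. In 43 of the 63 genes another probe set reached 0.5 with the member, as 65 of the 152 comparisons did, while 17 lay at -0.5 or below.

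In 15 genes another probe set ran against the member, with a correlation of -0.5 or below. The most opposed were those of Dgke, a diacylglycerol kinase (r = -0.886, rho = -0.908), Cd99l2, an adhesion protein gene (r = -0.832, rho = -0.787), Rbm39 (r = -0.824, rho = -0.886), Lancl1 (r = -0.804, rho = -0.857), the kinase gene Riok3 (r = -0.797, rho = -0.870) and Esco1 (r = -0.792, rho = -0.776). All 6 had a permutation p of 1e-05 and an adjusted p of 1.62e-05. A probe set of Mbp, the gene of myelin basic protein, also opposed its member (r = -0.786, rho = -0.818, same permutation p). In these genes mice with more signal on 1 probe set had less on another. At the other end, 4 of 7 further probe sets of Ndn followed the member at 0.971 to 0.981, the other 3 lay between -0.0989 and 0.0675, and 18 of the 152 reached 0.9.

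Mbp was the only member in the lists of cell type and region markers. It is 1 of the 5 oligodendrocyte markers, and none of the 16 other lists (regions, neighbouring brain areas, choroid plexus, pituitary, blood, vessels, glia, neurons, immediate early genes and chaperones) held a member. The Mbp probe set ran from 12.8 to 14.3 in cortex (median 13.7), from 13.6 to 15.4 in hippocampus (median 14.6), from 11.5 to 13.2 in hypothalamus (median 12.6) and from 13.8 to 14.7 in thalamus (median 14.5). Of the gene families counted, transmembrane genes named Tmem held 4 members of 217, protocadherins 1 of 35 (Pcdhb9), drug and aldehyde metabolism 1 of 146 (Aldh7a1), solute carriers 1 of 362 (Slc5a5) and clone-named genes 8 of 1789, beside 109 of 17735 genes that the rule could take (0.615%). Families were taken by the start of the symbol, so that members of like function with other names, such as Rbm39, Mtrex and Rad23b, are not counted in them. By that count the interferon-inducible (45 genes), MHC (23), mitochondrial ribosome (76), ubiquitin (273), helicase and splicing (89), and proteasome (48) families held 0. Families of these sizes would hold few or none at the share of 0.615%. The rule left out Psmd6, of the proteasome, and Tmem267 by name, so neither could count.

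The mean difference between cortex and thalamus was not used by the rule. Of the 118 member probe sets 7 were called by limma at an adjusted p under 0.05 with a log2 difference of at least 1 (5.93%), beside 5.51% of all 45037 probe sets. Higher in cortex were Fam241a and Pnma2, against 2.30% of all probe sets in that direction, and higher in thalamus were Pam, Nrip2, Cthrc1, Glo1 and Ndn, against 3.21% of all. With no minimum difference 89 members had an adjusted p under 0.05, beside 86% of all probe sets. The median difference over all probe sets was -0.145, and over members -0.233, so most values lean to thalamus as deposited. After quantile normalization these medians were -0.0184 and -0.0764.

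Fam241a ran from 3.57 to 7.74 in cortex (median 6.20) and from 2.84 to 6.40 in thalamus (median 5.01). The groups overlapped widely, with a difference of 1.16 ± 0.12 (SE, 98 and 108 arrays; limma adjusted p = 1.14e-17), and 89 of 91 mice with both regions had more in cortex. Pnma2 ran from 5.17 to 9.79 in cortex (median 8.28) and from 4.57 to 9.25 in thalamus (median 7.22), with a difference of 1.03 ± 0.16 (limma adjusted p = 1.64e-09), and 89 of 91 mice had more in cortex. Taken within mice the difference of Pnma2 was 0.877 ± 0.041, below the minimum of 1.

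Pam, the enzyme that amidates neuropeptides, ran from 5.51 to 11.1 in cortex (median 9.53) and from 6.55 to 12.8 in thalamus (median 11.1). Its cortex minus thalamus difference was -1.56 ± 0.17 (limma adjusted p = 6.73e-17), and 88 of 89 mice had more in thalamus. Nrip2 ran from 6.54 to 8.56 in cortex (median 7.86) and from 8.26 to 10.1 in thalamus (median 9.45), with a difference of -1.56 ± 0.06 (limma adjusted p = 1.16e-66) in the same direction in 91 of 91 mice. For Nrip2 only the brightest cortex arrays reached the dimmest of thalamus, whereas the ranges of Pam overlapped over most of their length.

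Cthrc1 ran from 4.25 to 8.38 in cortex (median 6.75) and from 5.15 to 9.45 in thalamus (median 8.03), with a difference of -1.26 ± 0.15 (limma adjusted p = 8.64e-15) and 87 of 87 mice higher in thalamus. For Glo1 the 3 member probe sets gave differences of -1.11 ± 0.04, -0.637 ± 0.043 and -0.447 ± 0.047, of which only the first was called (limma adjusted p = 3.57e-70), with 89 of 89 mice higher in thalamus. Ndn ran from 11.2 to 13.1 in cortex (median 12.1) and from 12.9 to 13.5 in thalamus (median 13.2), with a difference of -1.003 ± 0.046 (limma adjusted p = 2.26e-55) in 91 of 91 mice.

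**Figure D5:**
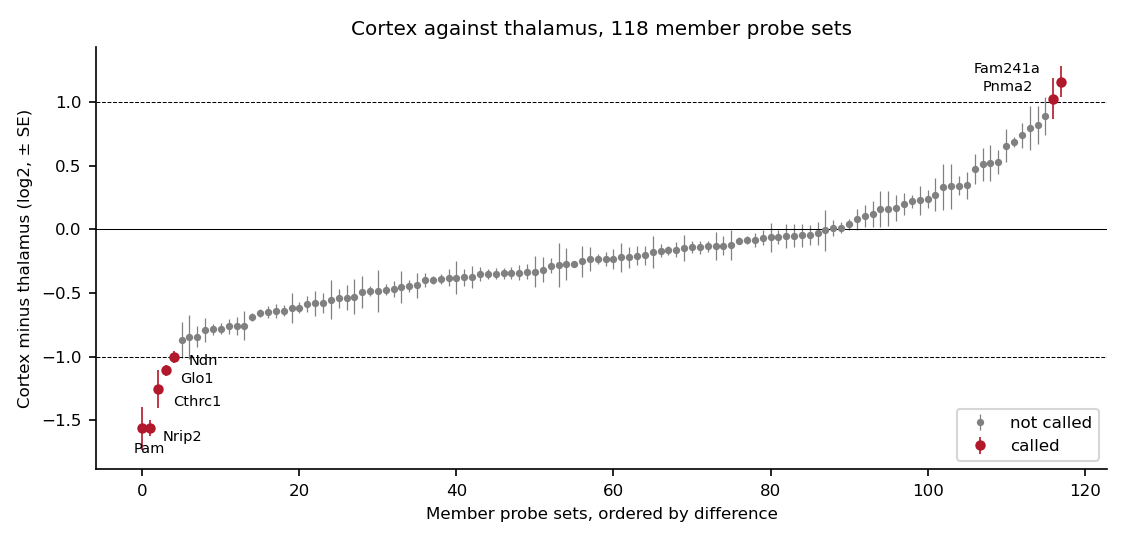
Cortex minus thalamus difference in log2 units with its SE (vertical axis) for the 118 member probe sets in order of the difference (horizontal axis), with called probe sets in red and dashed lines at the minimum of 1 in either direction. The called ones run from -1.56 for Pam and Nrip2 to 1.16 for Fam241a.

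The median SE of a member's difference was 0.0805 between unpaired arrays and 0.0297 within the 91 mice with both regions. With the mouse as a replicate block, that is on paired differences, 5 members were called, since Pnma2, at the 0.877 given above, and Ndn, at -0.99969 ± 0.03017, fell below the minimum difference. The SD of the paired difference had a median of 0.284 over members and 0.293 over all probe sets. Cortex and thalamus arrays of 1 shared hybridization date, 14 and 20 arrays, gave 6 calls among members.

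No member was called with any of 14 sleep and behaviour traits at a limma adjusted p under 0.05, against 5 of 630518 tests over all probe sets (0.000793%). Those 5 lay in delta power rebound (0.00444% of probe sets), cued freezing (0.00444%) and forced swim resting (0.00222%). At an unadjusted p under 0.05 there were 232 of 1652 tests of members (14.04%), beside 6.42% of tests over all probe sets. Members of a chromosome move together and several traits describe the same sleep, so these tests are not independent of each other. The share was highest for delta power rebound after deprivation (32 of 118 probe sets, 27.1%, beside 8.40% of all), baseline NREM delta power (30, 25.4%, beside 9.03%) and baseline NREM bout number (26, 22.0%, beside 7.07%), and lowest for wake after restraint (2, 1.69%, beside 6.78%).

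The smallest p belonged to Epb41l1, a protein of the membrane skeleton of neurons, and cued freezing, the time spent motionless at a tone paired before with shock. Its slope was 0.312 ± 0.065 log2 units per SD of the trait (SE, 106 mice; p = 5.34e-06, limma adjusted p = 0.0552). In single regions, which the rule makes alike, it ran from 0.168 ± 0.054 in hypothalamus to 0.379 ± 0.096 in thalamus. Src, on the same chromosome, followed with 0.187 ± 0.042 (limma adjusted p = 0.106). With each region standardised before averaging, both passed, with limma adjusted p-values of 0.00617 and 0.0216, and calls over all probe sets and traits rose from 5 to 27. For these genes the adjusted p ran from 0.00617 to 0.816 and from 0.0216 to 0.826 over 10 alternatives. Epb41l1 ran from 7.20 to 11.1 in cortex (median 9.58), and its mice fell into 2 clusters of 26 and 87. These values are of 1 of 3 probe sets of Epb41l1. The other 2 had lowest correlations between regions of -0.285 and 0.141, and were not compared with the member.

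Smco3 and Nrip2, whose low mice were largely the same, had slopes on baseline NREM amount of -0.341 ± 0.080 and -0.162 ± 0.038 in 111 mice, but neither was called (limma adjusted p = 0.252 for both). Shisa4 had a slope of 0.151 ± 0.040 on open field distance in 117 mice (limma adjusted p = 0.428).

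The RNA integrity number had a median of 7.7 in cortex, 7.9 in thalamus, 8.9 in hippocampus and 9.2 in hypothalamus, and 0 of the 118 probe sets were called with it by limma in any region, as were 0 of all 45037 (0%). At an unadjusted p under 0.05 there were 4 members in cortex, 8 in thalamus, 1 in hippocampus and 5 in hypothalamus, of 118 each, beside 4.86%, 4.00%, 3.82% and 4.42% of all probe sets. Tfpt had the smallest p in cortex (slope -0.0945 ± 0.0321 log2 units per SD) and Ccdc91 the smallest in hippocampus (-0.156 ± 0.051), with limma adjusted p-values of 0.988 and 1.00. With arrays under an integrity number of 7 left out, 118 probe sets passed the rule, of which 111 were the same.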

How the data were processed

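Arrays were grouped by the tissue in their labels and joined to mice by the animal number. Expression was deposited as log2 values. The submitters' processing notes name RMA and affy, and no version, build or batch step is given in the sources used here. The trait values, of other units, are deposited per the labels as amounts, times and transformed scores, and were scaled to SD 1. Depth is not defined for arrays; the number of arrays limits the precision. Cohort explained a median of 0.593% to 1.51% of a member's variance within a region. Missing values, 0.460% of the members' values, were left out of correlations and linear models, and set to the gene's mean in pairs.

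Members and lists were chosen with earlier results of these data known. Probe sets were named from the platform annotation, with symbols updated by gene ID. Named were the 20 genes with the highest lowest correlation, the 5 nearest the threshold on each side, members called between cortex and thalamus, those called with a trait or otherwise the 5 smallest p, the 5 largest and 5 smallest mean SD, those with the smallest p for RNA integrity, neighbours within 10 genes and members of a list. Pairs and other probe sets, and further genes named with them, were named by the size of their correlation, after values were seen. Differences and slopes were fitted with limma 3.58.1 in R 4.3.3 (lmFit, eBayes with trend) over all 45037 probe sets, with Benjamini-Hochberg adjustment, and tested on simulated data. In the trait and pair tests a mouse's value is the mean over its regions of the value minus the region mean. Permutation tests were two-sided. Same-numbered arrays come from 1 mouse, per the labels. No columns of samples were left out.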

Additional observations from a re-analysis of the deposited data

How the results depend on the processing

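The number of members depends on the rule: 65 probe sets passed with Spearman rho in place of Pearson r (59 shared), 183 at a threshold of 0.7, 61 at 0.8, and 21 with 5 principal components taken out within each region. It was 117 with mice of 4 regions (103 shared), 99 without the 2 mice farthest from the median (96 shared) and 125 with the commonest hybridization date, an alternative added after the data were seen (110 shared). Of the 118 members 22 fell below 0.75 without those 2 mice, the lowest of them, Pam, to 0.708. Clusters were called for 42 genes at a gap of 0.35 SD, 14 at 0.55 SD and 77 among the 51 mice with 4 regions, where neighbouring mice lie farther apart by construction. Called pairs numbered 167 with ranks, 149 with mice of 4 regions and 166 with the commonest dates. With near-clustered genes left out they numbered 126, which leaves fewer pairs to call. Without the 2 farthest mice 168 pairs had an absolute correlation at or above 0.276, the smallest of a called pair, a count made without a new test.

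Between cortex and thalamus, 89 of 118 members had an adjusted p under 0.05 with no minimum difference, beside 86% of all probe sets. With the mouse as a replicate block 5 were called, and 6 to 7 under the other alternatives. Glo1 (-0.958) and Ndn (-0.818) fell below 1 after quantile normalization, and Pnma2 (0.992) and Ndn (-0.946) with shared dates only, while 1 other member passed under each of these settings. For traits, standardising each region gave 2 calls among members, Epb41l1 and Src with cued freezing, beside 27 over all probe sets, and the other alternatives gave 0, also hippocampus alone with 36 over all; the cause was not tested. RNA integrity gave 0 calls with ranks and with date as a term. No direction turned among the 7 called differences and the 5 trait slopes named. Small differences that were not called did turn: Tmem87a went from 0.338 to -0.0756 with shared dates and Haus2 from -0.130 to 0.0294 after quantile normalization. Cohort explained little of the members' variance in the deposited values, so cohort as a term is a weak check. Other probe sets were not examined for this, and whether cohort was taken out before deposit is not known.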

Other observations

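Pisd-ps3, a pseudogene, was the gene with most member probe sets, 4 of 5, and the fifth lay just outside the threshold at 0.7496. The reference table gave it no chromosome. Among the other members it had 1 called pair, with 2610005L07Rik (r = -0.332, rho = -0.293, permutation p = 0.00031, adjusted p = 0.00636), and in the 51 mice with 4 regions that correlation was -0.186.

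On chromosome 15 the low mice of Ywhaz, a 14-3-3 adaptor protein gene, and of Cthrc1 did not meet: of 16 and 42 low mice 0 were low for both, 61 genes apart. On chromosome 8 the same held for Fam32a and Tm2d2, with 21 and 29 low mice and 0 shared. On chromosome 18 Lman1, a cargo receptor of the secretory pathway, and Minar2 shared 25 low mice, which is 89.3% of the mice low for Lman1 and 83.3% of those low for Minar2.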
